A study of Mus musculus with 5 samples.

Results

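The 8 enzymes described here move amino groups, open the carbon skeletons of amino acids or form their amides, and were followed in the livers of Pitx3 mutant mice: Tat, Gpt, Got1, Oat, Haao, Shmt2, Glul and Asns. The enzymes were chosen by name from a list drawn up with earlier values of these same arrays in view, and were matched by symbol to the array's probe list. All 8 had a probe, of 9930 genes named on the array, and their 12 probes gave 49 values out of 60 possible. Tat, Gpt, Got1, Oat and Asns had 1 probe each, Haao and Glul 2 each, and Shmt2 3. Because measured values guided the choice, the ratios of the 8 enzymes are given as a description and no test is read from them.

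Each 2-colour array carried liver RNA of 1 male mouse, 17 weeks old and labelled Pitx3eyl-/-, beside RNA pooled from wild-type mice. Pitx3 encodes a homeodomain transcription factor known for its roles in the lens and in dopamine neurons of the midbrain, and eyl is the eyeless allele. Of the 5 mutant animals, replicates 1, 2 and 4 were labelled with Cy5 and replicates 3 and 5 with Cy3. The pool held 4 mice according to the sample labels and 6 according to the labelling protocol. The labels give a different animal for each array, and the pool counts as 1 control sample, so the spread among wild-type mice is in none of the errors below. The genetic background, the feeding state and the time of day were not given in the labels used.

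Values are log2 ratios of the mutant animal over the pool, and a value of -1 stands for a transcript at 0.5 times the pool. The direction is likely and not stated by the labels, and in the opposite direction every sign and fold below would be inverted. That the swapped arrays were turned before deposit can be read from rounding. Ratios of 1 to 3 were stored as 0.333, so on the Cy5 arrays they lie at -1.586 from the array's most frequent value, while ratios of 3 to 1 lie at 1.585. On both Cy3 arrays the longer side was the positive one, at 1.587 on replicate 3 and 1.586 on replicate 5, against -1.585 on the negative side. Array medians ran from -0.19 on replicate 1 to 0.23 on replicate 5, and between 21.9% and 33.3% of the probes had no usable value on an array. Values larger than 12 in size were taken as codes and left out, and 0 of them fell on the 8 enzymes. Ratios carry no expression level, so the labelled tissue could not be checked by its markers. On at least 4 arrays, 9 of 12 hepatocyte marker probes were measured, beside 5 of 6 brain, 6 of 8 erythroid and 2 of 3 skeletal muscle probes. For kidney the count was 1 of 3, for pancreas 0 of 1 and for Kupffer cells 0 of 3.

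The liver breaks down most amino acids that are not used for protein. Aminotransferases pass the amino group to 2-oxoglutarate, using pyridoxal phosphate as cofactor, and the nitrogen then reaches the urea cycle through glutamate and aspartate. Glutamine synthetase, in the hepatocytes around the central vein, captures the ammonium that the urea cycle around the portal vein lets through. Asparagine synthetase uses glutamine to make the amide of aspartate, and its gene is a textbook target of ATF4, the transcription factor of the amino acid response.

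A probe entered the fit if at least 4 arrays measured it, some with the mutant in either dye. This held for 9 of the 12 enzyme probes and for 11300 probes in all. The mutant coefficient is the mean log2 ratio with both dye orientations weighted equally. The dye coefficient is 0.5 times the amount by which the Cy5 arrays exceed the Cy3 arrays. Every SE given with a coefficient is limma's moderated SE, for which a probe's variance is drawn towards a value common to all probes. In the main fit this value was an SD of 0.847. Such an SE is thus larger for steady probes, and smaller for widely varying ones, than their own arrays alone would give. limma with Benjamini-Hochberg adjustment called 0 of the 9 enzyme probes for the mutant coefficient, where 0% of all probes were called. At an unadjusted p under 0.05 there were 4 of the 9, with a background of 4.16%; since this contrast was known when the enzymes were chosen, nothing is read from that count. The mutant coefficients of the enzymes lay below 0 for 5 probes and above 0 for 4, with a median of -0.20, against a median of 0.04 and 46.1% below 0 over all probes. Of the 7 enzyme probes measured on all 5 arrays, 2 lay below 0 on every array (Tat and 1 probe of Shmt2), where 2.34% of all such probes did. One of the 7, a probe of Haao, lay above 0 on every array, where 3.65% of all such probes did.

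**Figure D1:**
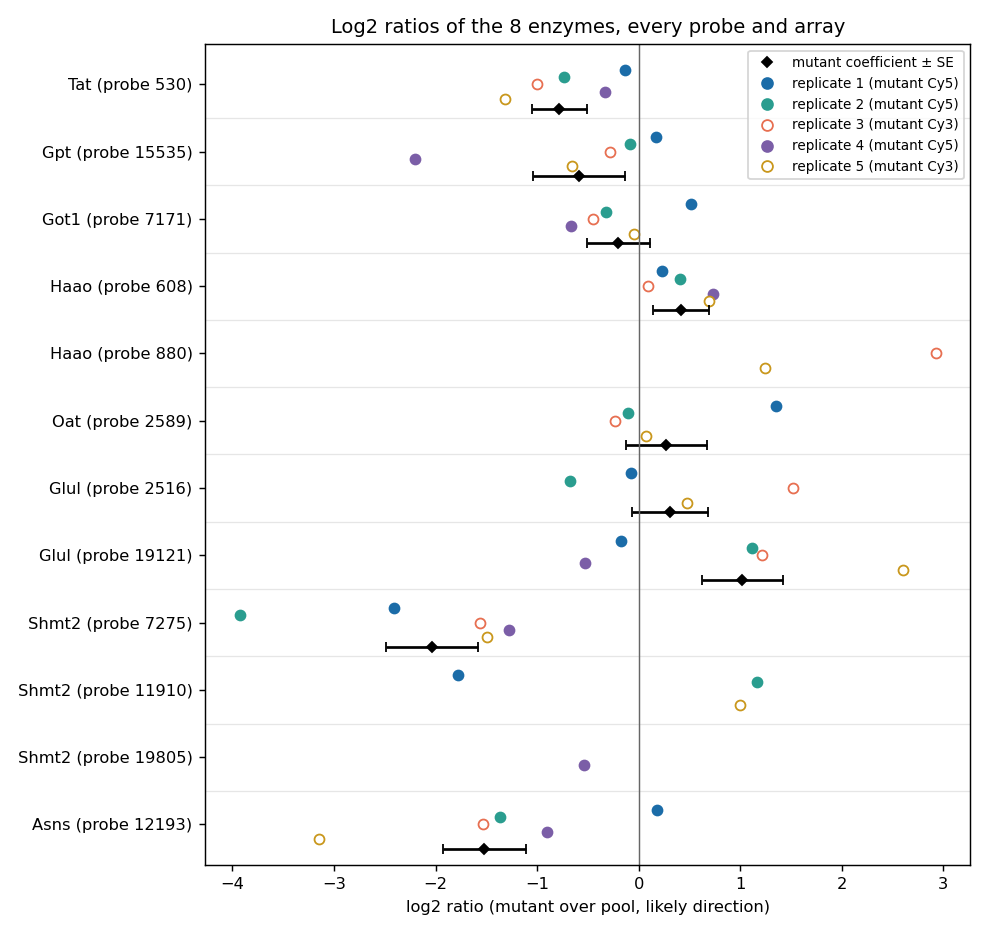
Log2 ratio (x axis, mutant over pool, likely direction) of each probe of the 8 enzymes (rows) on each array; filled points are arrays with the mutant in Cy5, open points those with the mutant in Cy3, and black diamonds are mutant coefficients with their SE for the 9 fitted probes. Tat and Shmt2 probe 7275 lie left of 0 on all 5 arrays, Haao probe 608 lies right of 0 on all 5, and the other probes of Shmt2 do not share the position of probe 7275.

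Among the aminotransferases, tyrosine aminotransferase, Tat, lay below 0 on every array and closest to 0 on replicate 1. Tat starts the breakdown of tyrosine and is a classical glucocorticoid-induced gene of the liver. Its probe 530 had log2 ratios of -0.13, -0.74, -0.998, -0.33 and -1.32 for replicates 1 to 5, in that order. Both arrays with the mutant in Cy3 were lower than all 3 arrays with the mutant in Cy5, at a mean of -1.16 against -0.40. The mutant coefficient was -0.78 ± 0.27 (SE, 5 arrays), or 0.583 times the pool, and the dye coefficient was 0.38 ± 0.27. Against its own array, however, Tat on replicate 1 was 0.06 above the median, while on replicate 5 only 8.31% of all values were lower. In whole liver, fewer cells that express a gene and less RNA of it in each cell cannot be told apart. The SD between arrays, 0.48, was below the median SD of 0.71 over all probes with 5 values, of which 30.5% had a smaller one.

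The 250 bases before the start of Tat used in the RefSeq promoter table (GRCm38.p6) are shown because Tat was the aminotransferase below 0 on every array. They are written 5′ to 3′ on the gene's strand, with CCAAT or its reverse complement in capitals. The locus of Tat in the RefSeq gene table begins farther upstream, at position 109986078 of chromosome 8, so another start is annotated.
Tat (chr8:109990186-109990435, plus strand): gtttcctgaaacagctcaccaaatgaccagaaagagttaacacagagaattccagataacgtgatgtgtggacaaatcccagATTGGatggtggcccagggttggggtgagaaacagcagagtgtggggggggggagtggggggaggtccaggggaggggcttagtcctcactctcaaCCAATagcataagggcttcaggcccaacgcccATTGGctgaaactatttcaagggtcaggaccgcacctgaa

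Alanine aminotransferase, Gpt, which joins alanine to pyruvate, had values of 0.18, -0.09, -0.28, -2.20 and -0.66 on replicates 1 to 5. Replicate 4 stood apart at the low end, and without it the mutant coefficient went from -0.59 ± 0.45 (SE, 5 arrays) to -0.21. That value on replicate 4 corresponds to a ratio of 3 to 19 once the array's constant is taken off. Without values at such ratios of whole numbers the coefficient was also -0.21.

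Cytosolic aspartate aminotransferase, Got1, supplies aspartate to the urea cycle and takes part in the malate-aspartate shuttle. Its log2 ratios were 0.52, -0.32, -0.45, -0.66 and -0.04 for replicates 1 to 5. One array lay above 0 and 4 below, and the mutant coefficient of -0.20 ± 0.31 (SE, 5 arrays) was smaller than its error. Without 1 array at a time it ran from -0.37 without replicate 1 to -0.07 without replicate 4. Got1 had the second smallest SD between arrays of the enzyme probes measured on all 5, at 0.46.

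The same stretch of Got1 is shown for comparison with Tat, since it has the most CCAAT matches of the 7 promoters; capitals mark them again.
Got1 (chr19:43524606-43524855, minus strand): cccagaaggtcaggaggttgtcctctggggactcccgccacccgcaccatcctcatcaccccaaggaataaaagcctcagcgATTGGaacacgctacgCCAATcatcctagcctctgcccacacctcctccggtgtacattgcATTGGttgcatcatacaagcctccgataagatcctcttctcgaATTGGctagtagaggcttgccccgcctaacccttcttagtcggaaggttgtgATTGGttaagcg

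Ornithine aminotransferase, Oat, a mitochondrial enzyme that links ornithine to glutamate and proline, was measured on 4 arrays. It had 1.36, -0.10, -0.24 and 0.07 on replicates 1, 2, 3 and 5. The first value stood above 95% of the values of its array and the other 3 lay near 0. The mutant coefficient of 0.27 ± 0.40 (SE, 4 arrays) turned to -0.09 without replicate 1, so that its sign rests on that array.

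All 4 of these enzymes had their highest value on replicate 1, where Gpt, Got1 and Oat were above 0 and Tat was below, whereas on replicate 4 the 3 that were measured, Tat, Gpt and Got1, lay below 0. The median of all values was -0.19 on replicate 1 and 0.11 on replicate 4.

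Haao, 3-hydroxyanthranilate dioxygenase, makes the precursor of quinolinate on the way from tryptophan to NAD. Its probe 608 had the narrowest spread of the enzymes, with 0.23, 0.40, 0.09, 0.74 and 0.69 on replicates 1 to 5. Only 8.27% of the probes measured on all 5 arrays had an SD below its 0.28. Relative to the array medians the values were also positive on every array, from 0.09 on replicate 3 to 0.62 on replicate 4. The mutant coefficient was 0.42 ± 0.28 (SE, 5 arrays), or 1.34 times the pool, with a dye coefficient of 0.03 ± 0.28. The other probe of Haao, 880, was measured on the Cy3 arrays alone, at 2.93 on replicate 3 and 1.24 on replicate 5, and could not be fitted. When both probes are averaged, these 2 values enter only the Cy3 arrays. The mutant coefficient of the gene then becomes 0.85 ± 0.28 and its dye coefficient -0.39 ± 0.28, so the larger value for the gene comes from probe 880.

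Shmt2, mitochondrial serine hydroxymethyltransferase, splits serine into glycine and a one-carbon unit carried by folate. Its probe 7275 had the lowest mutant coefficient of the 8 enzymes, -2.03 ± 0.45 (SE, 5 arrays), or 0.245 times the pool (4.09 times, if the ratio is pool over mutant). With the signs of replicates 3 and 5 turned it was -0.50, and Glul probe 19121, at -0.88, was then the lowest. The values were -2.41, -3.93, -1.56, -1.27 and -1.50 in the 5 replicates, in order. Between 2.22% (replicate 2) and 13.8% (replicate 4) of an array's values were lower. The dye coefficient of -0.50 ± 0.45 was close to its error.

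The other probes of Shmt2 did not repeat these values. Probe 11910 was measured on 3 arrays, at -1.78 on replicate 1, 1.17 on replicate 2 and 0.997 on replicate 5, so that on replicates 2 and 5, of the 3 shared arrays, it and probe 7275 lay on opposite sides of 0. Probe 19805 was measured on replicate 4 only, at -0.54. Averaged over its probes, the gene had a mutant coefficient of -1.18 ± 0.36 (SE). Of the 9 values of Shmt2, 8 lay at ratios of whole numbers up to 20, and their part in the low coefficient was not tested. For probe 7275 these were 1 to 12 on replicate 2, 3 to 8 on replicates 3 and 5, and 3 to 10 on replicate 4. Over whole arrays such values made up 24.8% to 34.6%, and over the 8 enzymes 26.5%. Without them probe 7275 could not be fitted, whereas Tat, Got1 and Asns had no such value.

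The mutant coefficients of the amide-forming enzymes lay on opposite sides of 0, below for Asns and above for both probes of Glul, but on replicate 4 Asns and Glul probe 19121 were both below 0, as were Asns and Glul probe 2516 on replicate 2. Asparagine synthetase, Asns, had log2 ratios of 0.18, -1.37, -1.53, -0.91 and -3.15 across replicates 1 to 5. On 4 arrays it was below 0 and replicate 1 was above, where Asns also stood higher than 66.5% of the values of that array. On replicate 5 only 1.65% of the values were lower. The mutant coefficient was -1.52 ± 0.41 (SE, 5 arrays), or 0.349 times the pool, and stayed between -1.93 and -1.11 when 1 array was left out. Both Cy3 arrays were lower than the 3 Cy5 arrays, with a mean of -2.34 against -0.70, and the dye coefficient was 0.82 ± 0.41.

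The same stretch of Asns is shown because it holds TGATGAAAC, the element for which this promoter is known, marked in capitals.
Asns (chr6:7693210-7693459, minus strand): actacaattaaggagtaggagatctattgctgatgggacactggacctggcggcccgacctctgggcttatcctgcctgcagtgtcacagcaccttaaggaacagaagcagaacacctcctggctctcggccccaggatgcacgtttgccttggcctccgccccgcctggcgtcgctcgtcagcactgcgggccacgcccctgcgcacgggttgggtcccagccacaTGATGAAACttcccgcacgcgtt

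Glutamine synthetase, Glul, had probes that differed from each other on the same arrays. Probe 19121 had -0.17, 1.12, 1.21, -0.53 and 2.60 on replicates 1 to 5, with a mutant coefficient of 1.02 ± 0.40 (SE, 5 arrays), or 2.03 times the pool. Probe 2516 had -0.08, -0.68, 1.52 and 0.47 on replicates 1, 2, 3 and 5, with a mutant coefficient of 0.31 ± 0.37 (SE, 4 arrays). The former exceeded the latter by 1.80 on replicate 2 and by 2.13 on replicate 5, and was lower by 0.10 on replicate 1 and by 0.30 on replicate 3. Both probes were higher on the Cy3 arrays than on the Cy5 arrays, with no overlap. Their dye coefficients were -0.88 ± 0.40 for probe 19121 and -0.69 ± 0.37 for probe 2516. For probe 2516, and for Oat, the dye coefficient exceeded the mutant one in absolute value.

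The dye coefficient was estimated from the same values and is likewise given as a description. limma with Benjamini-Hochberg adjustment called 0 of the 9 enzyme probes for it, where 0% of all probes were called, and at an unadjusted p under 0.05 there were 0 of the 9, with a background of 7.38%. The arrays of the Cy5 and Cy3 orientations did not overlap for 3 of the 7 enzyme probes measured on all 5 arrays, Tat, Asns and Glul probe 19121. Over all 6364 probes measured on all 5 arrays this share was 21.4%. Each animal was labelled with 1 dye only, so for these enzymes an effect of the dye and a difference between the animals of the Cy5 and Cy3 arrays cannot be told apart.

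**Figure D2:**
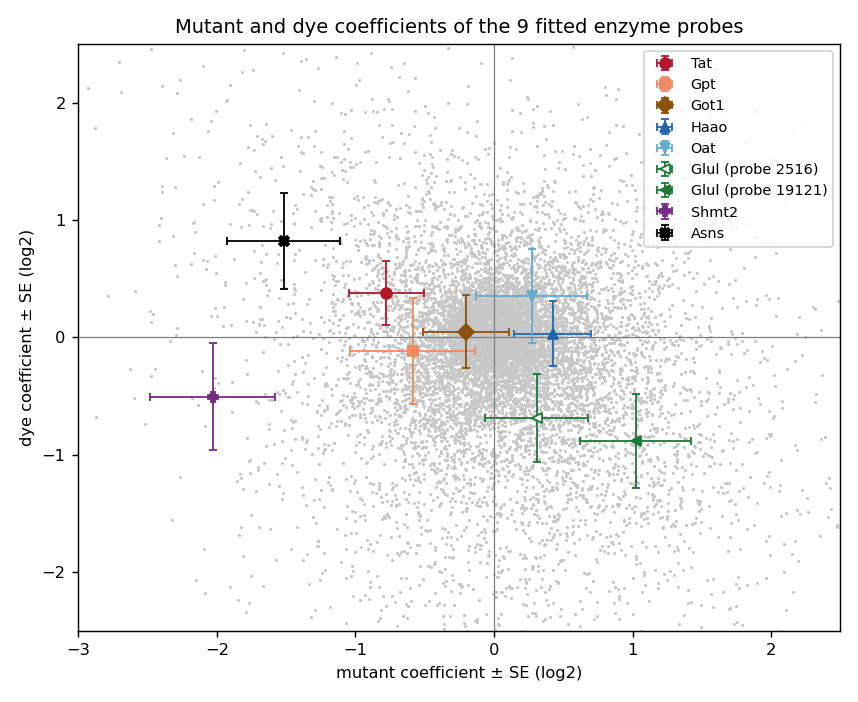
Mutant coefficient (x axis) against dye coefficient (y axis), both log2 with SE bars, for the 9 fitted enzyme probes (coloured) and all other fitted probes (grey dots, some beyond the axes). Asns and Tat lie to the left with positive dye coefficients, both Glul probes to the right with negative ones, and Shmt2 farthest left at -2.03.

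By array, the enzymes lay below 0 in 5, 7 and 6 of 10 values for replicates 1, 2 and 3, in 7 of 8 for replicate 4 and in 5 of 11 for replicate 5. Over all probes the share of values below 0 was 57.8%, 51.3%, 50.1%, 46.2% and 39.4% for replicates 1 to 5. Measured against the array median, 2 of 10 enzyme values were lower on replicate 1, both of them from Shmt2. The same count was 7 of 10 on replicate 2, 6 of 10 on replicate 3, 7 of 8 on replicate 4 (all but Haao) and 6 of 11 on replicate 5. Replicate 5 held the lowest value of Tat and of Asns and the highest of Glul probe 19121.

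**Figure D3:**
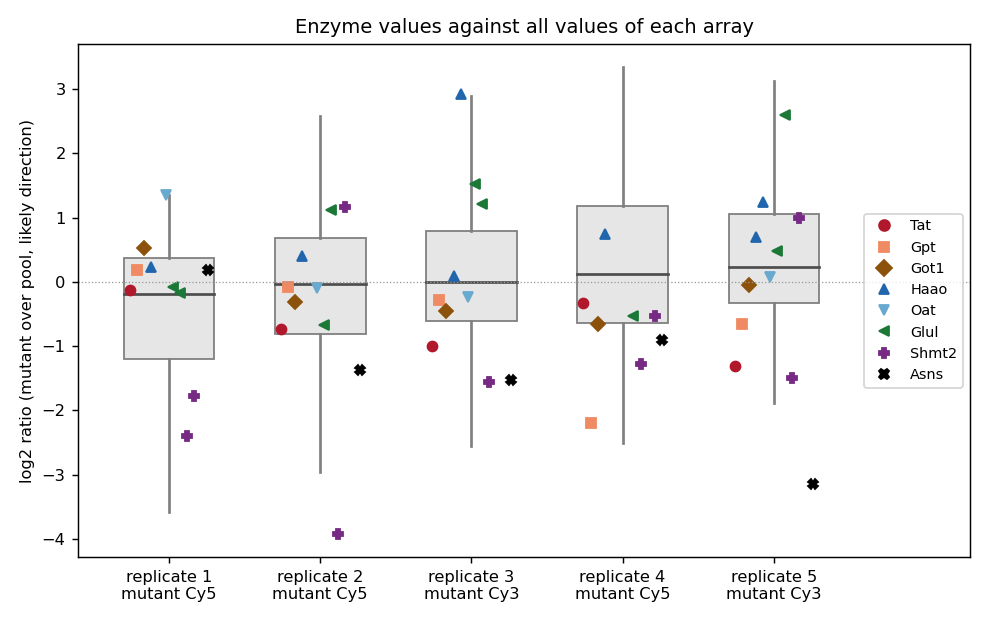
Log2 ratios (y axis, mutant over pool, likely direction) of the enzyme probes on each of the 5 arrays (x axis) over boxes that show the median and the middle 50% of all values of the array, with lines to the 5th and 95th percentiles. On replicate 1 only Shmt2 lies below the array median of -0.19, and on replicate 5 Asns, at -3.15, lies below the 5th percentile of -1.89.

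The promoters of 7 of the 8 enzymes were searched for 6 short motifs on both strands, in the 250 bases before the start. As for Tat, the window of Haao lies inside the gene's locus. The Asns promoter holds TGATGAAAC from 23 to 15 bases before the start. This element, bound by C/EBP and ATF proteins, was found on either strand in 0.213% of the 32851 promoters of the same length. Its looser form TGATGNAAN, of which the former is a case, occurs in 3.44% of them and in 2 of the 7 enzymes, Asns and Got1. In Got1 it lies on the reverse strand, 103 to 95 bases before the start, and shares 1 base with a CCAAT match. TGTTCT, part of the site of the glucocorticoid receptor, was present in Haao and Asns (16.1% of all promoters), TGACG in Asns (17.8%) and TATAAA in 0 of the 7 (12.4%). CCAAT, searched after the sequences had been seen, was found in Tat, Got1, Oat and Glul (33.8% of all promoters), with 3 matches in Tat, 5 in Got1 and 2 each in Oat and Glul. These matches are descriptions of the letters in these windows. Tat, Haao, Oat, Glul and Shmt2 do not hold the looser form, and Gpt was not among the 7. Any link between these motifs and the ratios was not tested.

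Enzymes that share a reaction or a chain with the 8 were listed by biochemistry, 16 in all, of which 10 had a probe. limma called 0 of their 10 fitted probes in either direction, 5 lay above 0 and 5 below, and the median mutant coefficient was 0.04 (-0.02 without replicate 5). Hpd, the dioxygenase that follows Tat in tyrosine breakdown, also lay below 0 on every array. Its values were -0.47, -0.92, -0.78, -0.49 and -0.20 on replicates 1 to 5, with a mutant coefficient of -0.56 ± 0.28 (SE, 5 arrays) and a dye coefficient of -0.07 ± 0.28. The order of the arrays differed between Tat and Hpd, since replicate 5 was the lowest for Tat and the highest for Hpd.

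The mitochondrial counterparts of Got1 and Gpt stayed close to 0. Got2 had a mutant coefficient of -0.02 ± 0.27 (SE, 5 arrays), with array values from -0.27 to 0.52, and Gpt2 one of -0.11 ± 0.27, from -0.56 to 0.37. Both had their highest value on replicate 1, as Gpt and Got1 did. Shmt1, the cytosolic counterpart of Shmt2, had 0.04, 0.56, 2.73, -0.02 and -0.15 at its probe 3001, and a mutant coefficient of 0.74 ± 0.49 (SE) that rests on replicate 3. Its other probe was measured on 2 arrays, at -0.36 and 1.96. Gldc, of the glycine cleavage system, had 0.10 ± 0.26, and Mthfd2, of mitochondrial folate metabolism, was measured on 2 arrays, at -1.95 on replicate 1 and 2.46 on replicate 4.

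Around glutamate and proline the partners varied widely between probes and arrays. Glud1, glutamate dehydrogenase, had 0.09 to 0.41 on all 5 arrays at probe 18222 but -3.37 to 1.01 on 4 arrays at probe 19876. Prodh, proline dehydrogenase, ran from -1.95 to 2.29 and Aldh4a1, which continues the oxidation of proline, from -6.84 to 3.27. Next to Asns, Asnsd1, a gene named for its asparagine synthetase domain, lay above 0 on 4 of 5 arrays, with a mutant coefficient of 0.58 ± 0.31 (SE, 5 arrays). On replicates 2, 3 and 5 Asns was below and Asnsd1 above 0.

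**Figure D4:**
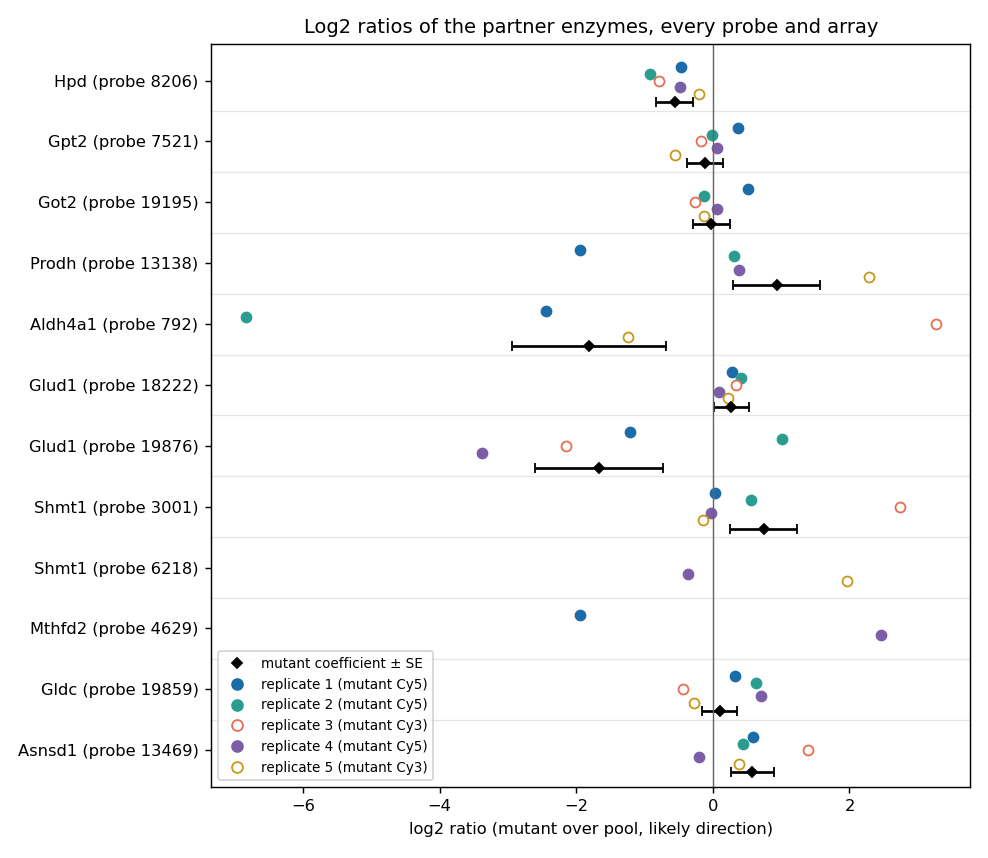
Log2 ratio (x axis, mutant over pool, likely direction) of each probe of the partner enzymes (rows) on each array; symbols as for the 8 enzymes, with black diamonds for the mutant coefficient and its SE. Hpd lies left of 0 on all 5 arrays, Got2 and Gpt2 lie around 0, and Aldh4a1 runs from -6.84 to 3.27.

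The wider set of amino acid enzymes, without the 8, had 66 of 105 listed genes on the array and 53 fitted probes. limma called 0 of them higher and 0 lower, 25 lay above and 28 below 0, and the median mutant coefficient was -0.01. With 1 array left out it ran from -0.11 to 0.05 and was above 0 without replicates 2, 3 or 4. Aminotransferases other than Tat, Gpt, Got1 and Oat had 5 of 6 probes below 0, with a median of -0.22 (-0.13 without replicate 3), from Abat at -0.89 ± 1.02 (SE, 4 arrays) to Psat1 at 0.29 ± 0.33. Tyrosine and phenylalanine enzymes had 5 of 6 below 0 (median -0.12, but -0.32 without replicate 1, -0.06 without replicate 2 and -0.05 without replicate 4), from Pcbd1 at -1.51 ± 0.86 to Fah at 0.03 ± 0.28. The 2 fitted probes of the tryptophan list, around Haao, were Kyat3 at -0.64 ± 0.31 and Aadat at -0.32 ± 0.34, both below 0 where Haao was above. Both are also counted among the aminotransferases. Lists overlap, here and below, and the partners are part of the wider set, so their counts are not independent.

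In the glutamate, glutamine and proline list 3 of 6 lay below 0 (median 0.04, but -0.57 without replicate 5 and -0.03 without replicate 2), between Aldh4a1 at -1.82 ± 1.12 and Prodh at 0.93 ± 0.64. The serine, glycine and folate list, around Shmt2, had 3 of 10 below 0 and a median of 0.13 (-0.02 without replicate 5, and 0.03 to 0.20 without one of the others), from Mthfd1l at -0.44 ± 0.37 to Shmt1 at 0.74. In the asparagine and aspartate list 2 of 4 lay below 0 (median -0.03, but 0.12 without replicate 1 and 0.17 without replicate 3), between Asrgl1 at -0.17 ± 0.28 and Asnsd1. Methionine and cysteine enzymes had 2 of 9 below 0 (median 0.24, and 0.12 without replicate 5), from Cth at -0.28 ± 0.35 to Suox at 0.77 ± 0.98. Enzymes of branched chain amino acids and lysine had 7 of 12 below 0 (median -0.02, but 0.09 without replicate 4 and 0.02 without replicate 5), from Mmut at -0.57 ± 0.73 to Pcca at 0.58 ± 0.62. Histidine enzymes had Uroc1 at -0.32 ± 0.26 and Hal at 0.26 ± 0.28.

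Lists that share regulators or position with single enzymes were set beside them in the same way. Fitted probes covered only part of each list. They stood for 12 of 26 listed ATF4 genes and 8 of 22 glucocorticoid and fasting genes. For the pericentral list it was 6 of 18 genes and for the periportal list 9 of 18. The list of ATF4 targets, without Asns but with Atf4 itself, had 9 of 13 probes below 0 and a median of -0.04. It ran from Ddit3 at -0.74 ± 1.03, with -6.04 on replicate 4, to Atf4 at 1.06 ± 1.0, with 5.34 on replicate 2. The median of this list turned to 0.06 without replicate 4 and reached -0.46 without replicate 5. Genes of the glucocorticoid and fasting response, to which Tat belongs, had 3 of 8 below 0 and a median of 0.15, from Mt2 at -0.72 ± 0.38 to Mt1 at 1.01 ± 0.82; it turned to -0.06 without replicate 3, -0.01 without replicate 1 and -0.09 without replicate 5. Pericentral genes other than Glul and Oat had 10 probes from 6 genes, with several of Car3 and of Slc1a2, and 8 of the 10 lay above 0. Their median was 0.62, from Car3 probe 5198 at -0.24 ± 0.65 to Lgr5 at 1.37 ± 1.04, and 0.42 to 0.69 with 1 array left out. The periportal list had 11 probes from 9 genes, with more than 1 of Arg1 and of Ass1, and 8 of the 11 lay below 0. Its median was -0.32, from Asl at -0.68 ± 0.26 to Hal at 0.26. The lowest probes of this list were those of the urea cycle genes Asl, Ass1 (-0.62 and -0.57) and Arg1 (-0.503 and -0.495). The others were Uroc1 at -0.32, Alb at -0.13, Pigr at -0.12, Cyp2f2 at 0.06, Cdh1 at 0.20 and Hal. Over all fitted probes 46.1% lay below 0, with a median of 0.04. limma called 0 probes of these 4 lists in either direction.

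**Figure D5:**
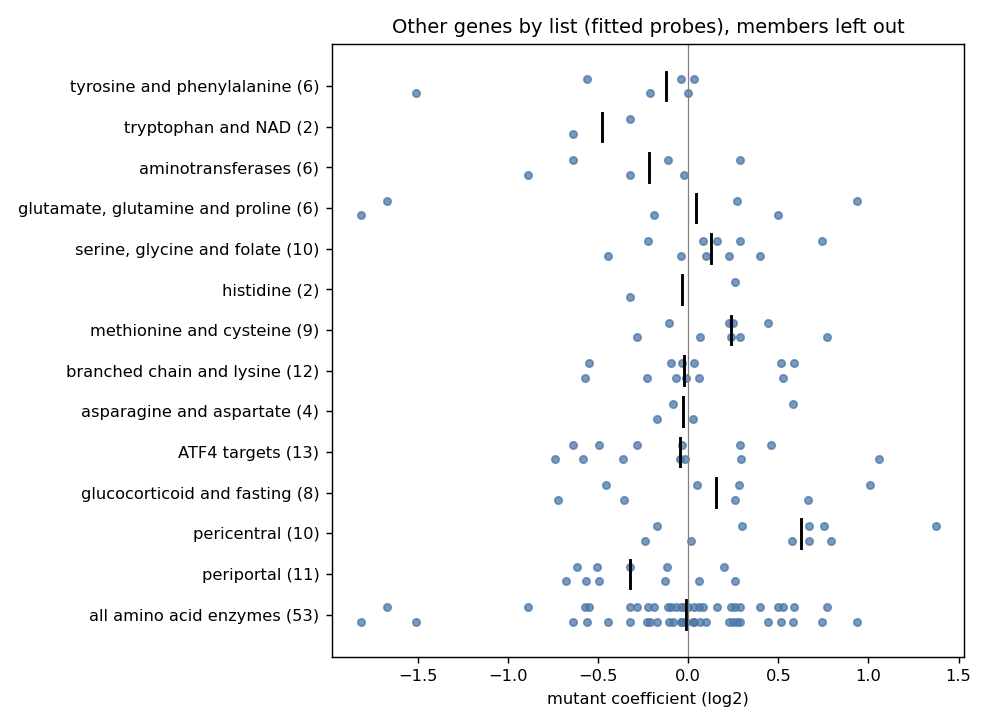
Mutant coefficients (x axis, log2) of the fitted probes of each list, with the 8 enzymes left out; each point is a probe, the black line is the list's median and the number in brackets is the count of fitted probes. A gene can have several probes. The pericentral list has its median at 0.62 and the periportal list at -0.32, and the 53 amino acid enzyme probes together at -0.01. The lowest points of the periportal list are probes of Asl, Ass1 and Arg1.

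The profiles most like those of the enzymes were sought over the 5 arrays among 4593 probes of other named genes, by the root mean square difference of the log2 ratios. Got1 had the closest neighbour, Bola1, at a difference of 0.0855 log2 units, against a median of 0.779 to all probes compared. For Haao probe 608 it was Stoml1 at 0.142, for Tat Lpin1 at 0.151 and for Gpt Bace1 at 0.187. Lpin1 had -0.20, -0.93, -0.80, -0.29 and -1.14 on replicates 1 to 5, with replicate 1 highest and replicate 5 lowest, as for Tat. Since Lpin1 was picked for its closeness to Tat, this shared order follows largely from the choice. Glul probe 19121 was nearest to Nr6a1 at 0.471, Asns to Cplx1 at 0.706 and Shmt2 probe 7275 to Parp16 at 1.0. For Shmt2 the median difference to all probes compared was 2.49.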

How the data were processed

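The authors deposited 1 table of log2 ratios for 5 arrays and 20355 probes, and no column was left unused (0 columns). That the deposited values are log2 was read from where ratios of 3 to 1 lie, sought only close to the log2 of 3. The commonest value there, on either side of the array's most frequent value, was shared by 35 (replicate 1, positive side) to 84 (replicate 3, negative side) probes. The sources used here do not name the scanner, the background correction or the normalization. Per the labels' protocols, 20 µg of total RNA went into an indirect labelling of cDNA. Values over 12 in size were set to missing, and nothing was centred. The platform's annotation named 14030 probes. The mutant and dye coefficients were estimated by lmFit and eBayes of limma 3.58.1 under R 4.3.3, across all 11300 probes with values on at least 4 arrays in both orientations, with up to 3 residual degrees of freedom and a prior of 2.24. Adjusted p-values are Benjamini-Hochberg values over all probes and a call needs one under 0.05. The code of the fit was run on simulated normal noise without a dye effect, with known shifts added to some probes. That run does not show how well the fit detects changes in these data. The number of arrays limits the precision. Whole-number ratios were matched up to 20, within 0.001.

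The enzymes and lists were chosen with earlier results of these data known. Named genes were all 8 enzymes, the partners fixed by biochemistry, the highest and lowest probe of each other list and the nearest profile of each enzyme probe measured on all 5 arrays. The marker lists gave these counts of genes with a probe: hepatocyte 10 of 15, kidney 3 of 4, pancreas 1 of 4, skeletal muscle 3 of 4, brain 3 of 4, erythroid 3 of 4 and Kupffer cell 3 of 4. Median mutant coefficients were -0.05 over 9 fitted hepatocyte probes, 0.22 over 6 erythroid, 0.24 over 5 brain and 0.65 over 2 skeletal muscle probes, with 1 kidney probe at -0.08 and 0 fitted for pancreas and Kupffer cells. The alternatives were centring, the dye term, the filter on missing values, the coded values, whole-number ratios, the sign of the swapped arrays, averaging of probes, a robust prior and leaving out each array.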

Additional observations from a re-analysis of the deposited data

Results flagged for a closer look

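For Shmt1, the cytosolic counterpart of Shmt2, 1 array stood far from the others: probe 3001 had 2.73 on replicate 3, while the next highest value was 0.56. The gap was 0.756 of the whole range, above the critical value of 0.71 for 5 samples. It was the only such value among 19 probes of the enzymes and their partners with values on at least 4 arrays, and chance gives about 1 in 20.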

How the results depend on the processing

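limma called 0 probes for the mutant coefficient under each of the 14 alternatives, and 0 for the dye coefficient under each alternative with a dye term. At an unadjusted p under 0.05 for the mutant coefficient there were 238 to 834 probes, with 5920 to 15495 tested. The 834 belong to the alternative with the signs of replicates 3 and 5 turned and are the dye count of the main fit. The mutant count of the main fit was 470 of 11300. Of 121 alternative values of the 9 enzyme coefficients, 114 moved by less than the SD between arrays and 7 by more. With the signs of replicates 3 and 5 turned, the mutant coefficient was 0.38 for Tat, 0.82 for Asns, 0.05 for Got1, -0.12 for Gpt, 0.35 for Oat, 0.03 for Haao probe 608, -0.69 and -0.88 for the Glul probes and -0.50 for Shmt2 probe 7275; this alternative exchanges the mutant and dye coefficients by construction. The sign differed from the main value in 6 of the 121, and apart from the turned arrays only for Oat without replicate 1 (-0.09). Leaving out 1 array moved the coefficient over 1.5 times at least once for Gpt (-0.81 to -0.21), Got1 (-0.37 to -0.07), Haao probe 608 (0.27 to 0.57), Oat (-0.09 to 0.64), Glul probe 2516 (0.05 to 0.57) and probe 19121 (0.68 to 1.37), but not for Tat, Shmt2 probe 7275 or Asns. The number of amino acid enzyme probes below 0, 28 of 53, became 18 of 35 with values required on all 5 arrays and 17 of 35 without whole-number ratios, where fewer probes are tested. Each ratio already sets a mutant animal against the pool on the same array. No further pairing was possible because all 5 arrays belong to 1 group and share the pool.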

Other observations

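Alb, the albumin gene and among the most abundant transcripts of liver, had log2 ratios within 0.003 of the array's most frequent value on 4 of 5 arrays, the exception being replicate 4, where it was lower by 0.38. Between 0.95% and 1.51% of an array's values lie that close to it.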
